A study of Rattus norvegicus with 5 samples.

Results

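The P2Y receptor genes are the 7 rat genes P2ry1, P2ry2, P2ry4, P2ry6, P2ry12, P2ry13 and P2ry14, chosen by symbol out of the 33014 gene symbols of a gene-level expression table. All 7 were in the table. RNA had been sequenced from 5 cultures of dissociated dorsal root ganglion cells of wild-type Sprague Dawley rats, taken at postnatal day 10 from 1 litter of 10 pups. Dorsal root ganglia hold the cell bodies of sensory neurons together with their glia. Every culture stood for 8 days, was treated after 1 day with PBS, a saline buffer used as vehicle, and was pooled from 3 wells of 5000 plated cells each. No other genotype, agent or time was present, so the libraries form 1 group, replicates 1 to 5, and the comparisons below are between genes within libraries. The labels name no separate litters or preparations behind the replicates, so spreads and p-values cover these libraries alone and may be technical.

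P2Y receptors are G protein-coupled receptors of the cell surface that sense nucleotides released by active, stretched or damaged cells. P2ry1, P2ry2, P2ry4 and P2ry6 encode receptors that signal mainly through Gq, phospholipase C and calcium release. P2ry12, P2ry13 and P2ry14 encode receptors that signal through Gi and lower cyclic AMP. ADP activates the products of P2ry1, P2ry12 and P2ry13, the triphosphates UTP and ATP those of P2ry2 and P2ry4, UDP that of P2ry6, and UDP and UDP-sugars that of P2ry14. In sensory ganglia nucleotides act on neurons, on satellite glia and on macrophages. Since whole wells were lysed, the cells that carried a transcript are not known, and fewer cells of a type cannot be told apart from less RNA per cell.

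Libraries held 21596608 to 27913098 estimated reads, and 1 TPM over 1 kb of effective transcript length stood for 13.3 to 17.4 reads. TPM is the estimated number of reads per effective transcript length, scaled to 1000000 per library. The labelled tissue showed its defining markers, with all 6 neuronal and all 5 Schwann cell markers detected at summed levels of 5408 to 5779 and 5296 to 6068 TPM. All 3 satellite glia markers (411 to 459 TPM), all 6 fibroblast markers (1695 to 1739 TPM) and all 9 macrophage markers (1237.5 to 1964 TPM) were detected as well. A gene is called detected where its TPM was at least 1 in each of the 5 libraries.

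Of the 7 P2Y genes, 6 were detected, against 41.3% of all genes in the table. The exception was P2ry13, which reached 1 TPM in 2 of 5 libraries. The typical member stood at 4.66 TPM (median of the 7 mean levels), while the median of all genes was 0.297 TPM. None of the 7 was abundant among expressed genes: P2ry12, the highest, lay above 45.1% of the detected genes, P2ry2 above 30.7%, P2ry6 above 22.7% and P2ry14 above 3.52%. Summed over the 7, the level was 40.1, 42.03, 45.5, 44.2 and 48.7 TPM in replicates 1 to 5, a mean of 44.1 ± 3.29 TPM (SD, n = 5). P2ry12 alone made up 39.1% ± 2.56 of that sum and P2ry2 22.5% ± 1.68.

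**Figure D1:**
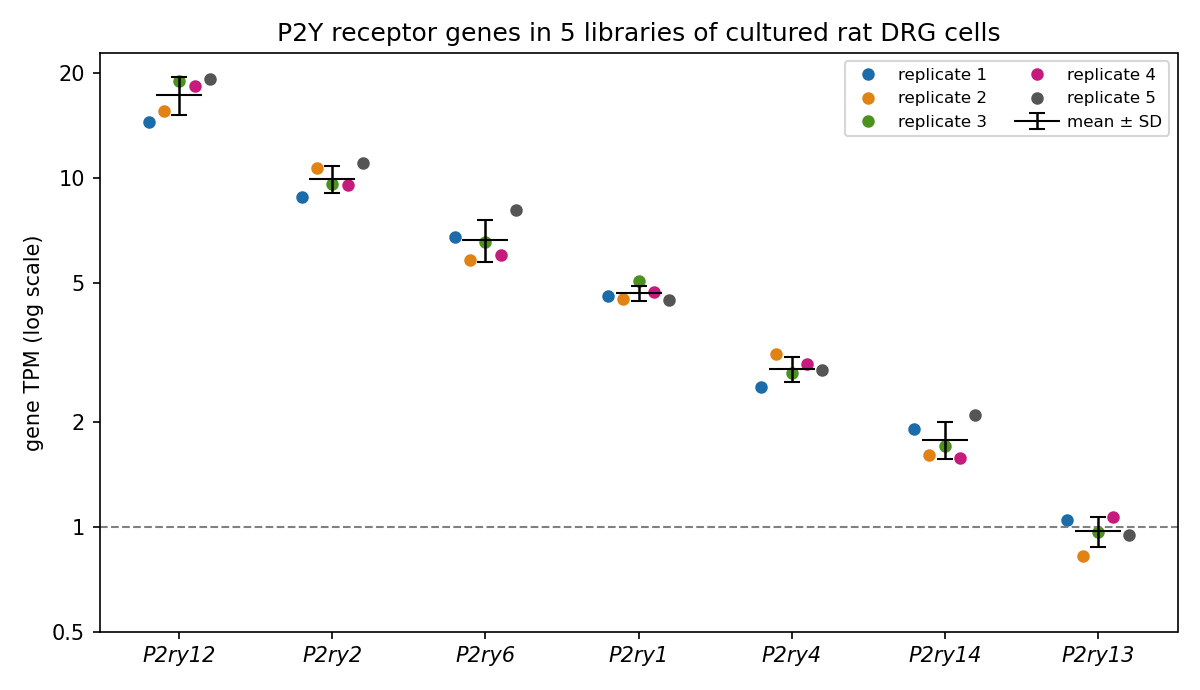
Gene TPM (log axis) of the 7 P2Y genes in order of mean level; coloured points are the 5 libraries, bars the mean ± SD, and the dashed line 1 TPM. The ranges of neighbouring genes do not overlap, from P2ry12 at 14.4 to 19.2 TPM down to P2ry13 at 0.826 to 1.07 TPM.

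Among the Gq-linked members, P2ry2 was the highest. It encodes a receptor for UTP and ATP, stood at 8.82, 10.7, 9.60, 9.53 and 11.02 TPM in replicates 1 to 5, and averaged 9.93 ± 0.895 TPM (SD, n = 5). Replicate 5 was the highest library and replicate 1 the lowest, and 396 to 483 reads stood behind each value. In the rat annotation GRCr8, P2ry2 overlaps Fchsd2, a gene on the opposite strand that was at 9.20 ± 0.788 TPM, or 92.7% of the P2ry2 level. The strand setting of the quantification is not given in the sources used here, so reads of the 2 genes cannot be told apart where their exons overlap.

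P2ry6, the UDP receptor gene, was at 6.78, 5.81, 6.54, 6.02 and 8.10 TPM in replicates 1 to 5, a mean of 6.65 ± 0.898 TPM (SD, n = 5). Its highest library was replicate 5 and its lowest replicate 2. P2ry1, whose product is an ADP receptor, was at 4.59, 4.51, 5.05, 4.70 and 4.47 TPM and averaged 4.66 ± 0.234 TPM. Its libraries lay closer together than those of any other member, with a coefficient of variation of 5.01%. P2ry4, which like P2ry2 encodes a triphosphate receptor, was at 2.51, 3.13, 2.76, 2.93 and 2.81 TPM, a mean of 2.83 ± 0.228 TPM. By gene TPM its lowest library was replicate 1 and its highest replicate 2.

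Of the Gi-linked members, P2ry12 was the highest and the highest of all 7. It encodes the ADP receptor known as the target of antiplatelet drugs and as a marker of microglia in the brain. Its level was 14.4, 15.5, 18.9, 18.3 and 19.2 TPM in replicates 1 to 5, with a mean of 17.3 ± 2.17 TPM (SD, n = 5). Replicates 1 and 2 were low and replicates 3 to 5 high. P2ry14, the gene of the UDP-sugar receptor, was at 1.91, 1.61, 1.70, 1.58 and 2.09 TPM and averaged 1.78 ± 0.218 TPM. As few as 38.0 to 44.4 reads per library stood behind it, the fewest of the 7. P2ry13, whose product is a further ADP receptor, was at 1.04, 0.826, 0.966, 1.07 and 0.950 TPM, a mean of 0.971 ± 0.0958 TPM. The exact Poisson 95% interval of its pooled reads spans 0.876 to 1.07 TPM, so its place on either side of 1 TPM is within counting error.

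P2ry12, P2ry13 and P2ry14 lie close together on chromosome 2 of GRCr8, inside the span of Med12l, a subunit gene of the Mediator complex, and P2ry1 lies on the same chromosome. Med12l was at 2.68 ± 0.314 TPM, which is 15.5% of the P2ry12 level, 151% of the P2ry14 level and 276% of the P2ry13 level. P2ry13 and P2ry14 are on the strand opposite to Med12l, and any shared exonic reads make their low levels uncertain. P2ry2 and P2ry6 lie on chromosome 1 and P2ry4 on the X chromosome, where its span overlaps Arr3, a retinal arrestin gene at 0.0888 ± 0.0892 TPM.

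Start regions were in the RefSeq promoter table of GRCr8 for 5 of the 7 genes: P2ry1, P2ry2, P2ry4, P2ry13 and P2ry14. Each covers 250 bases before to 50 after a gene's annotated start. P2ry2 had the most CG dinucleotides of these 5 and P2ry4 the fewest, so these 2 are shown 5′ to 3′, with every CG in capitals. The P2ry2 window is chr1:164779439-164779738 and the P2ry4 window chrX:69728477-69728776, both GRCr8, minus strand.
P2ry2: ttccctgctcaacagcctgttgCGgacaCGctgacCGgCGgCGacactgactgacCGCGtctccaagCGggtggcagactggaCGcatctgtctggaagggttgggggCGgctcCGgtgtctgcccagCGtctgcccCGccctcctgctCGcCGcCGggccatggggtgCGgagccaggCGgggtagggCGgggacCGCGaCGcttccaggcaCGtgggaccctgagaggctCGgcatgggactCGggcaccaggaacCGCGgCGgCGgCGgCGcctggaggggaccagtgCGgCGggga
P2ry4: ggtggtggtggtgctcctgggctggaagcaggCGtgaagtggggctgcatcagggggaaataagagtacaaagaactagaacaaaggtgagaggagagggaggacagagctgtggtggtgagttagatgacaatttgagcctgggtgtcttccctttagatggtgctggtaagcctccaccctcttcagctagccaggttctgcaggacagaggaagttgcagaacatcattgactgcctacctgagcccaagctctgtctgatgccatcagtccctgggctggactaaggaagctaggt
The P2ry2 window held 33 CG dinucleotides, more than 92.5% of the 33469 windows of this length in the table, and a GC content of 73.0%. P2ry1 had 16 CG, P2ry13 had 7, P2ry14 had 6 and P2ry4 had 1, against a median of 7 over all windows, and 94.5% of all windows held at least 1 CG. CG is its own reverse complement, so both strands are covered. CG content followed the order of levels only in part. P2ry2 and P2ry1 had the most CG of the 5 and also the highest TPM, at 9.93 and 4.66. P2ry4, with 1 CG, had a higher TPM than P2ry13 and P2ry14. With 5 windows this is a description.

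Ordered by mean TPM, the genes ran P2ry12, P2ry2, P2ry6, P2ry1, P2ry4, P2ry14 and P2ry13, and each gene was higher than the next in 5 of 5 libraries. This order was taken from the same 5 libraries that were then tested. The direction of each ratio was thus set beforehand, and the p-values below give no independent support for the order. For each lower neighbour, the log2 ratio of every gene to it was taken in each library, as log2(TPM + 0.1), and tested against 0 with limma over the 24484 genes, beside the lower neighbour itself, that were not at 0 in all libraries. P2ry12 exceeded P2ry2 by 1.73-fold (log2 0.79 ± 0.18, SD, n = 5; limma adjusted p = 9.27e-07). P2ry2 exceeded P2ry6 by 1.49-fold (log2 0.58 ± 0.19; limma adjusted p = 6.19e-05). The lowest P2ry2 library, 8.82 TPM, lay just above the highest P2ry6 library, 8.10 TPM. P2ry6 exceeded P2ry1 by 1.41-fold (log2 0.49 ± 0.21; limma adjusted p = 0.000335), and P2ry1 exceeded P2ry4 by 1.63-fold (log2 0.70 ± 0.14; limma adjusted p = 1.48e-05). P2ry4 exceeded P2ry14 by 1.56-fold (log2 0.65 ± 0.25; limma adjusted p = 0.000384). P2ry14 exceeded P2ry13 by 1.75-fold (log2 0.81 ± 0.20; limma adjusted p = 9.56e-05). So the 6 differences were larger than the spread between libraries. Such a call is common, since 96.9% of all genes differed from P2ry2, 96.3% from P2ry6, 97.4% from P2ry1, 97.1% from P2ry4, 96.3% from P2ry14 and 95.4% from P2ry13 in the same fits.

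The order depended on length normalization. Without length normalization, the reads of a gene's transcripts that could be matched to its symbol were scaled by the library total (CPM). Matched transcripts covered 82.3% to 100% of the P2ry4 level and 92.1% to 100% of the P2ry14 level, so the CPM of these 2 can leave reads out. P2ry2 led in CPM at 17.8 ± 1.53 and P2ry4 came next at 15.3 ± 1.07, ahead of P2ry12 at 14.9 ± 1.68. P2ry1 was at 10.4 ± 0.515, P2ry6 at 6.91 ± 0.975, P2ry13 at 3.13 ± 0.335 and P2ry14 at 1.66 ± 0.117 (SD, n = 5). On that scale 4 of the 6 neighbour differences turned their direction. P2ry12 lay below P2ry2 (log2 -0.26; limma adjusted p = 0.00829), P2ry6 below P2ry1 (log2 -0.59; limma adjusted p = 0.000113), P2ry1 below P2ry4 (log2 -0.54; limma adjusted p = 3.04e-05) and P2ry14 below P2ry13 (log2 -0.87; limma adjusted p = 0.000174). CPM counts a long transcript more often than a short one, so it does not rank transcript numbers.

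**Figure D2:**
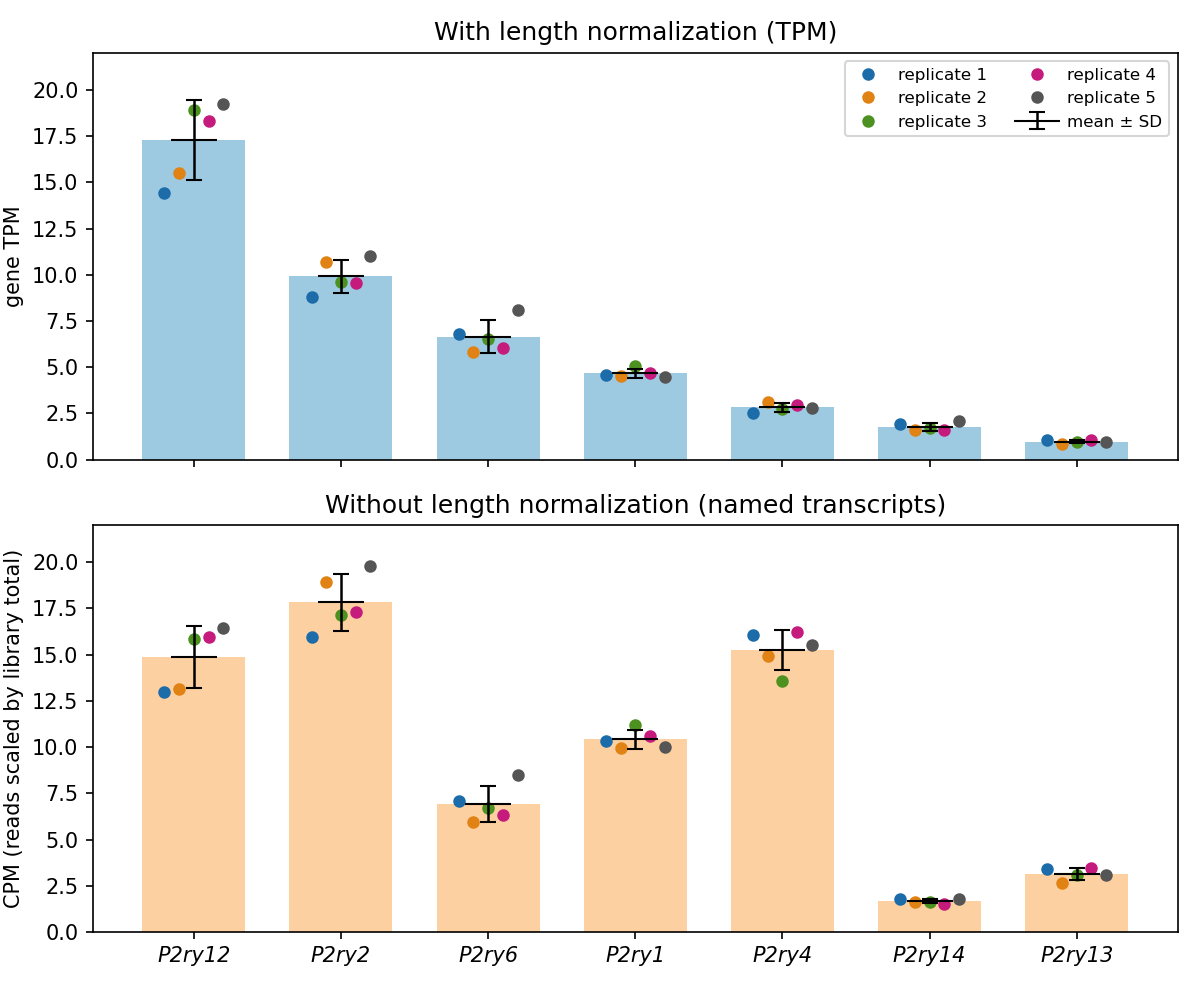
The 7 genes as gene TPM (top) and as CPM, without length normalization (bottom), with both axes linear from 0; bars with whiskers are mean ± SD and points the 5 libraries. P2ry4 is lower than P2ry12 by TPM (2.83 against 17.3) and near it by CPM (15.3 against 14.9).

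P2ry4 had the longest transcripts of the 7. It had 9 named transcripts: 1 curated model of 1177 bases and 8 predicted models of 7267 to 15038 bases. The curated model was assigned no read in any library. Its counting floor over the 5 libraries, 3 reads in all, was 0.0439 TPM. That floor is no upper limit on its level, since it does not cover how reads that fit several models were shared. All 1859 named reads of the gene went to the predicted models. The most read-rich of these, of 11068 bases, took 0% to 40.4% of the P2ry4 level depending on the library, so the division between the models varied from library to library. Named models covered 82.3% to 100% of the P2ry4 level in a library, and they summed to a mean of 2.50 TPM, against 2.83 TPM in the gene table.

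P2ry13 showed the same split. Its curated transcript of 1011 bases was assigned no read, and a predicted transcript of 5482 bases took all 382 reads. The counting floor of the curated one was 0.0537 TPM over the 5 libraries, with the same limit as for P2ry4. P2ry6 reads likewise lay almost wholly on a predicted transcript, of 1941 bases, which held 97.5% ± 2.04 of the gene's level (SD, n = 5), while the curated one of 2530 bases held 1.85% ± 1.36. P2ry1 had a single transcript, curated and 3888 bases long. P2ry2 had 99.9% ± 0.272 of its level on its curated transcript of 3178 bases.

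P2ry12 was divided between a curated transcript of 1254 bases and 2 predicted ones of 2493 and 2667 bases. The short curated transcript held 67.6% ± 1.81 of the gene's TPM but 47.9% of its reads, since TPM divides reads by length. The longest one was at 2.00 TPM in replicate 1 and at 0.325 to 0.592 TPM in the other libraries. P2ry14 had 63.5% ± 20.9 of its level on its curated transcript of 1794 bases, with library values from 33.8% to 82.3%.

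**Figure D3:**
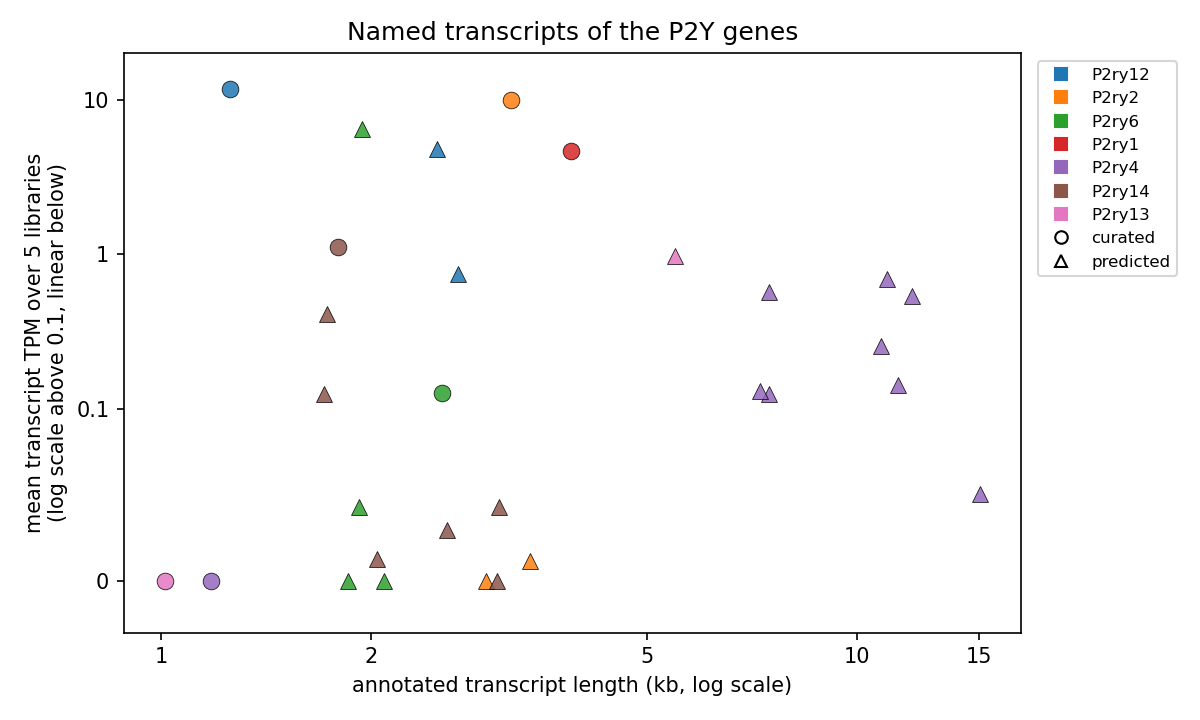
Mean TPM over 5 libraries (log axis above 0.1, linear below) against annotated length in kb (log axis) for every named transcript of the 7 genes; circles are curated and triangles predicted transcripts. The curated transcripts of P2ry4 and P2ry13 sit at 0 TPM, and all P2ry4 transcripts with reads are 7267 bases or longer.

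How the model divided reads between transcripts also set how far some neighbours stood apart. With all reads of a gene placed at its longest transcript that had reads, a choice made after the levels were seen, P2ry12 was at 10.05 ± 1.11 TPM and P2ry2 at 9.27 ± 0.836 TPM. The difference then missed the threshold (log2 0.11; limma adjusted p = 0.192). Likewise P2ry6 no longer differed from P2ry1 beyond the spread (log2 0.12; limma adjusted p = 0.237), nor P2ry14 from P2ry13 (log2 -0.00495; limma adjusted p = 0.976). P2ry4 stayed below P2ry1 by more, with a log2 ratio of P2ry1 to P2ry4 of 1.43. Placed at the shortest transcript with reads, P2ry12 stood at 24.4 ± 2.69 TPM and the 6 differences kept their direction.

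Grouped by coupling, the 4 Gq-linked genes summed to 22.7, 24.1, 24.0, 23.2 and 26.4 TPM in replicates 1 to 5, and the 3 Gi-linked genes to 17.4, 17.9, 21.6, 20.97 and 22.3 TPM. By gene TPM the Gq-linked sum was the higher in each library, at 54.7% ± 2.24 of the total (SD, n = 5). This depended on how reads were divided between transcripts. With all reads at the shortest transcript that had reads, the Gi-linked genes had the higher mean sum. P2ry12 was then at 24.4, P2ry14 at 1.86 and P2ry13 at 0.971 TPM, against P2ry2 at 9.93, P2ry6 at 6.75, P2ry1 at 4.66 and P2ry4 at 3.53 TPM. At the longest such transcript the Gq-linked mean sum stayed the higher. Grouped by ligand, the ADP receptor genes P2ry1, P2ry12 and P2ry13 held 51.9% ± 2.53 of the summed TPM. The triphosphate receptor genes P2ry2 and P2ry4 held 29.0% ± 2.21, and the UDP and UDP-sugar receptor genes P2ry6 and P2ry14 held 19.1% ± 2.04. In CPM, the Gq-linked genes summed to 50.4 ± 2.00 and the Gi-linked genes to 19.7 ± 1.78. By ligand on that scale, the triphosphate receptor genes led with 33.1 ± 1.78, against 28.4 ± 2.07 for the ADP receptor genes and 8.57 ± 1.07 for the UDP and UDP-sugar receptor genes.

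The members did not move as one between libraries. The coefficient of variation of TPM was 12.5% for P2ry12, 13.5% for P2ry6, 9.02% for P2ry2 and 8.06% for P2ry4. Counting errors from the reads alone were 5.29%, 7.77%, 4.82% and 5.22%. For P2ry1, P2ry14 and P2ry13 the variation, at 5.01%, 12.3% and 9.86%, was no larger than counting errors of 6.31%, 15.8% and 11.6%. Replicate 5 was the highest library for P2ry12, P2ry2, P2ry6 and P2ry14, but the lowest for P2ry1. edgeR dispersions, which are drawn towards the trend of genes of like abundance, gave 8.34% to 14.7% for the 7, beside a median of 7.71% over 12453 genes. For P2ry1, P2ry4, P2ry6, P2ry13 and P2ry14 the edgeR value exceeded the whole coefficient of variation of TPM, so no order of the genes is read from it. Each of the 7 lay below the edgeR trend for genes of its abundance.

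Beside these values stand those of the cell type markers. The 9 macrophage markers summed to 1651, 1237.5, 1867, 1827 and 1964 TPM in replicates 1 to 5, with replicate 2 the lowest library and replicate 5 the highest. P2ry6, P2ry13 and P2ry12 are known from macrophages or microglia. Replicate 2 was the lowest library for P2ry6 and P2ry13 and the next to lowest for P2ry12. It was next to lowest for P2ry1 and P2ry14 as well, so this standing was not particular to those genes. For P2ry2 replicate 2 lay above the mean, and for P2ry4 it was the highest library. The variation of P2ry13, 9.86%, was no larger than its counting error of 11.6%. P2ry12 was lowest in replicate 1, where the macrophage sum was 1651 TPM. The log2 level of P2ry12 had an SD of 0.19 over libraries, and its log2 ratio to the macrophage sum had an SD of 0.19 as well; for P2ry6 these were 0.18 and 0.20, and for P2ry13 0.13 and 0.20. Dividing by the macrophage sum thus did not narrow the spread of these 3 genes. Nor did it narrow that of the other 4. The Schwann cell sum, whose lowest library was replicate 1 at 5296 TPM, narrowed the spread of P2ry4 to 0.06, against 0.11 alone, of P2ry2 to 0.10, against 0.13 alone, and of P2ry12 to 0.15, against 0.19 alone. The satellite glia sum narrowed that of P2ry12 to 0.14, of P2ry13 to 0.11, against 0.13 alone, of P2ry1 to 0.06, against 0.07 alone, of P2ry6 to 0.16, against 0.18 alone, and of P2ry14 to 0.159, against 0.164 alone. The neuron sum narrowed P2ry2 to 0.11 and P2ry4 to 0.09, and the fibroblast sum narrowed these 2 to 0.12 and 0.10. Of the other 6 marker lists, the platelet list narrowed P2ry6 to 0.15, against 0.18 alone, and none narrowed another member. For P2ry4 the ratios rest on gene TPM, which was lowest in replicate 1. In CPM of matched transcripts P2ry4 was lowest in replicate 3, at 13.6, with replicate 1 at 16.1. Matched transcripts covered 82.3% to 100% of its level, so which order its reads follow is not settled. The marker ratios are descriptions over 5 libraries, and none was tested. The part of cell makeup in these levels was not tested.

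**Figure D4:**
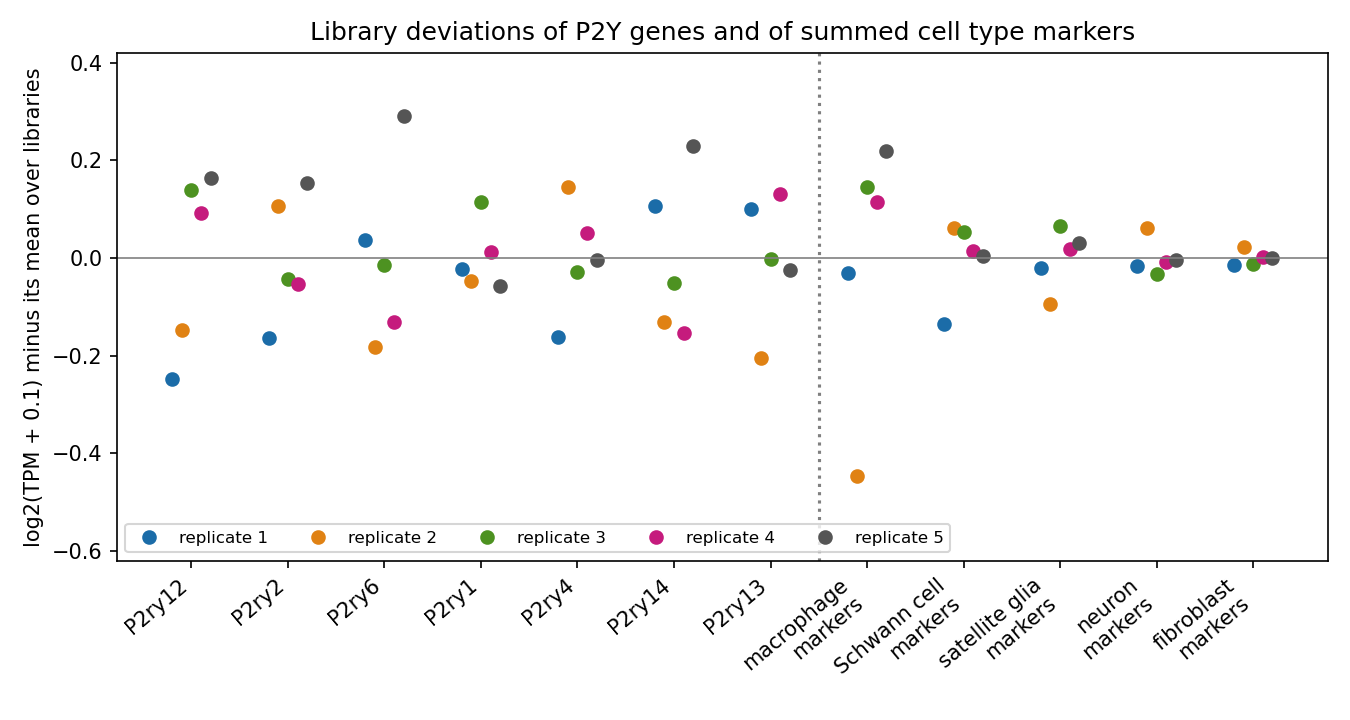
Deviation of log2(TPM + 0.1) from its mean over the 5 libraries for the 7 P2Y genes (left of the dotted line) and for the summed TPM of 5 marker lists (right); each point is a library. Macrophage markers have their lowest point in replicate 2, P2ry12 its lowest in replicate 1, and P2ry1 stays within about 0.11 of its mean.

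Of markers for microglia, the brain macrophages from which P2ry12 is best known, 2 of 4 were detected, led by Tmem119 at 4.31 ± 0.767 TPM, with Cx3cr1 at 2.42 ± 0.616 TPM. Sall1, a microglial transcription factor gene, was at 0.756 ± 0.123 TPM and Siglech at 0.0589 ± 0.0619 TPM. Their sum was 9.84, 7.43, 7.44, 6.24 and 6.78 TPM in replicates 1 to 5, highest in replicate 1, where P2ry12 was lowest. Tmem119, the largest part of that sum, was at 5.67 TPM in replicate 1 and at 3.81 to 4.11 TPM elsewhere. Cx3cr1 was highest in replicate 1 too, at 3.18 TPM. For platelets, which also carry P2ry12 and P2ry1, 1 of 5 markers was detected: Pf4, a chemokine gene that macrophages express too, at 68.9 ± 13.4 TPM. The platelet genes Ppbp and Gp9 were listed at 0 in every library.

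Genes with the most similar library profile were sought among 9424 genes of at least 10 TPM, by the root mean square distance of gene-centred log2(TPM + 0.1) over the 5 libraries. The nearest to P2ry12 was Tf, which encodes transferrin, at a distance of 0.0399, followed by Pold1 and Mgll. Nearest to P2ry2 was Brf2 (0.0114), before LOC100912167 and Nipal3, and nearest to P2ry6 was Evi2a (0.0453), before LOC120099725 and Rcbtb2. P2ry1 was closest to Apool (0.00973), Gtf2a2 and Riox1, and P2ry4 to Stac2 (0.0212), Fzd8 and Rims2. For P2ry14 these were Rcbtb2 (0.0330), LOC120099725 and Haus5, so 2 of its 3 nearest genes were also among those of P2ry6. The variation of P2ry14, 12.3%, was no larger than its counting error of 15.8%, and that of P2ry1, 5.01%, no larger than 6.31%. The profiles of P2ry14 and P2ry1 may thus be counting noise. The median distance of all candidates was 0.18 for P2ry12, 0.18 for P2ry6 and 0.0849 for P2ry1. These likenesses rest on 5 libraries and 9424 candidates each, and no test was made. That of P2ry4 holds for gene TPM, as its libraries stood in another order in CPM of matched transcripts.

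The partner genes of nucleotide signalling were mostly detected, beside 41.3% of all genes in the table. For the P2X genes the share was 57.1%. The lists are short, and no share was tested. Among the 7 P2X genes, which encode ATP-gated cation channels, 4 were detected, with P2rx3 at 264 ± 8.23, P2rx4 at 63.7 ± 3.36 and P2rx7 at 46.2 ± 3.44 TPM, each above P2ry12; P2rx6 was lowest at 0.393 ± 0.159 TPM. The median P2X gene, at 1.66 TPM, lay below the median P2Y gene, at 4.66 TPM. Adenosine receptor genes, for the nucleoside left when ATP is broken down, were detected for 3 of 3 in the table, with Adora2a at 9.92 ± 0.424, Adora2b at 2.95 ± 0.696 and Adora1 at 2.19 ± 0.689 TPM.

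Ectonucleotidase genes, whose products break down nucleotides outside the cell, were detected for 7 of 9. Entpd2, which converts ATP to ADP, the ligand of the P2ry12, P2ry13 and P2ry1 products, was far the highest at 472 ± 39.6 TPM. Enpp3 and Acp3 followed at 27.5 ± 2.71 and 27.1 ± 1.79 TPM, and Entpd8 was lowest at 0.00499 ± 0.0112 TPM, on 1 read in all. Of 7 genes linked to nucleotide release 5 were detected, led by the channel genes Panx1 at 45.5 ± 3.90, Lrrc8a at 35.8 ± 1.67 and Gja1 at 34.99 ± 3.42 TPM, and Calhm1 was listed at 0.

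On the intracellular side, all 10 genes of the Gq arm were detected, with the calcium release channel gene Itpr3 at 92.5 ± 6.19 TPM and the G protein genes Gnaq at 58.8 ± 1.504 and Gna11 at 57.1 ± 2.37 TPM. All 5 Gi-class alpha subunit genes were detected, with Gnai2 at 472 ± 7.55, Gnai3 at 137 ± 1.64 and Gnao1 at 130 ± 2.71 TPM. Their medians were 21.5 and 130 TPM. Of 11 receptor genes related to the P2Y family by sequence 4 were detected, or 36.4%, against 41.3% of all genes. The detected ones were Gpr34 at 7.10 ± 1.34, Lpar4 at 3.18 ± 0.244, Gpr17 at 2.99 ± 0.643 and Lpar6 at 2.45 ± 0.535 TPM. Gpr171, which like P2ry12, P2ry13 and P2ry14 lies inside the Med12l span, was at 0.0109 ± 0.0243 TPM, and Oxgr1 was listed at 0. Median levels of the lists are a description, and nothing particular to a list was tested.

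**Figure D5:**
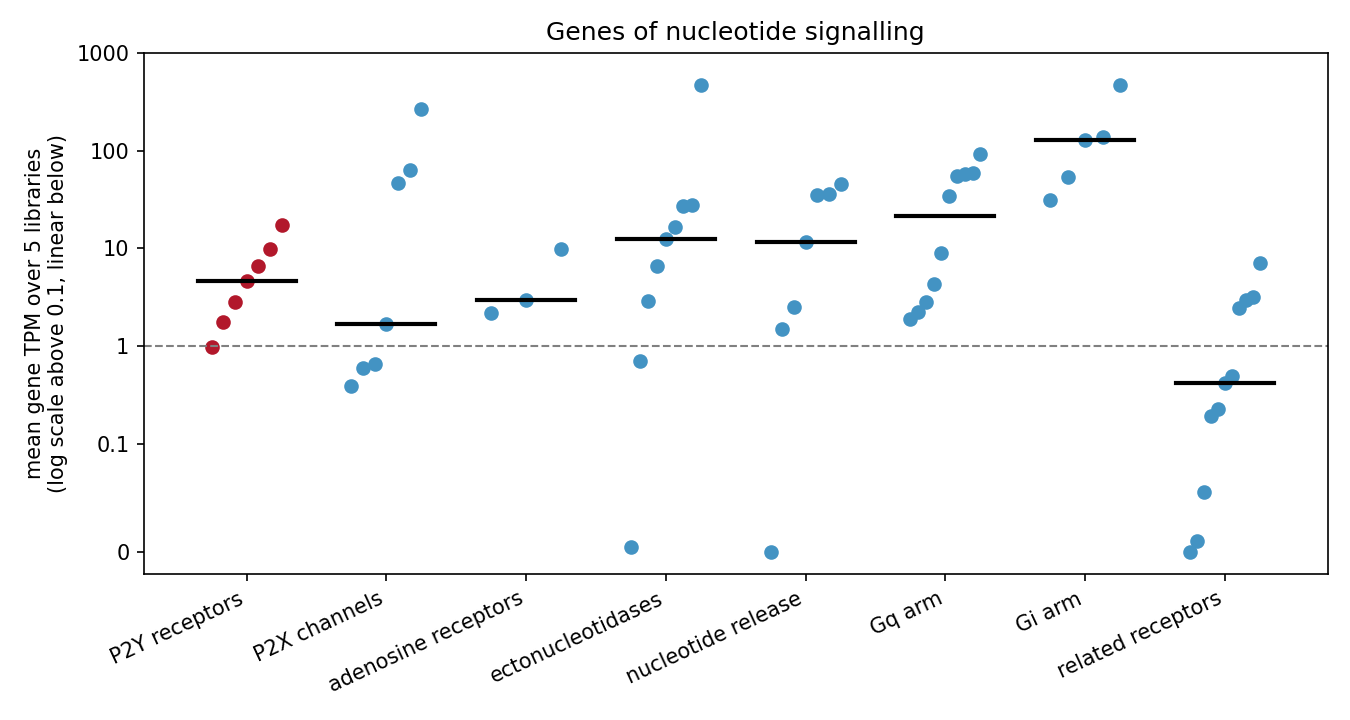
Mean gene TPM over 5 libraries (log axis above 0.1, linear below) for the 7 P2Y genes and the 7 other lists; each point is a gene, the black bar the list median and the dashed line 1 TPM. The P2Y genes lie between 0.971 and 17.3 TPM, and the highest points elsewhere are Entpd2 and Gnai2, both at 472 TPM.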

How the data were processed

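The labels describe 5 poly-A RNA-seq libraries. Salmon 1.5.1, cutadapt 2.8, Trim Galore 0.6.6 and the build mRatBN7.2 are listed in the submitters' processing notes; no source used here gives the strand setting or annotation release. The authors deposited gene-level TPM for 33014 symbols and quantification files that give, per the file headers, Salmon's TPM and estimated counts of reads over 98811 transcripts. Levels are gene TPM unless stated. Accessions without version were matched to a RefSeq table of GRCr8, which named 67314 transcripts (68.1%); sequences are RefSeq's, of GRCr8.

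Neighbour ratios were fitted with limma 3.58.1 (intercept only, trend, all genes not at 0 throughout), two-sided, with Benjamini-Hochberg adjustment over all genes of a fit, a threshold of 0.05 and a pseudocount of 0.1, which understates ratios of low genes. Dispersions came from edgeR 4.0.16 (TMM, filterByExpr) on estimated counts summed over named transcripts and rounded; DESeq2 1.42.0 size factors were an alternative. The steps were tested on simulated data. Intervals and floors (3 reads) cover counting error only, as reads carry no molecular identifiers. Named genes were the members, the highest 3 and lowest undetected of each pathway list, the highest and zero-level genes of each marker list, the 3 nearest profiles of each detected member, and genes overlapping a member. Cx3cr1, Sall1, Siglech, Gpr171, Lpar6, Pecam1, Cldn5, Rgs5, S100a9 and Mpo were added after their values were seen. Members and lists were chosen with earlier results of these data known. Adora3 was not in the table. Some genes that the rule names are not reported here.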

Additional observations from a re-analysis of the deposited data

Results flagged for a closer look

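Of 55 levels examined over the 5 libraries, 5 had 1 library far from the other 4, and chance alone would mark about 1 in 20 such groups. None of these was a P2Y gene. Enpp3 was at 32.3 TPM in replicate 1 and at 25.5 to 27.1 TPM in the other libraries. Tmem119 was at 5.67 TPM in replicate 1 and at 3.81 to 4.11 TPM elsewhere. Entpd8 had 0.025 TPM in replicate 1, from 1 read, and 0 elsewhere. Gpr34 was at 4.75 TPM in replicate 2, the library with the lowest macrophage marker sum, and at 7.28 to 7.93 TPM in the others. S100a8 was at 6.28 TPM in replicate 5 and at 2.09 to 3.08 TPM in the others.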

How the results depend on the processing

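With 6 of 7 members detected in the main setting, the count was 7 at a threshold of 0.5 TPM, with P2ry13 added. It was 5 at a threshold of 2 TPM, with P2ry14 lost. The share of all genes at these thresholds was not taken. With transcript sums and without any 1 library the count stayed at 6. Of 84 alternative values of the 6 neighbour ratios, 71 kept their direction and their side of the threshold, among them all that left out a replicate, changed the pseudocount to 0.01 or 1, added a filter at 1 TPM, used transcript sums or dropped the trend. CPM turned P2ry12 over P2ry2 to -0.26, P2ry6 over P2ry1 to -0.59, P2ry1 over P2ry4 to -0.54 and P2ry14 over P2ry13 to -0.87, since transcript length then enters the ratio. All reads at the longest transcript, added after the data were seen, gave 0.11 for P2ry12 over P2ry2, 0.12 for P2ry6 over P2ry1 and -0.00495 for P2ry14 over P2ry13, none of them past the threshold. The exact sign-flip test over 5 libraries cannot go below p = 0.0625, which each ratio reached: 0.79, 0.58, 0.49, 0.70, 0.65 and 0.81 in the order of the report. Mean TPM moved by more than 1 SD in 1 of 42 alternatives (P2ry4 as a transcript sum, 2.50), and the edgeR dispersion by over 1.5 times in 1 of 49 (P2ry14 without a filter, 20.7%). Depth limits P2ry14 most, at 38.0 to 44.4 reads per library.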

Other observations

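Marker lists of cells not described above were detected in part. Of 4 endothelial markers 2 were detected, led by Cdh5 at 18.6 ± 1.05 TPM. The other 2 were Pecam1 at 0.680 ± 0.146 and Cldn5 at 0.0967 ± 0.0695 TPM. Mural cell markers were detected for 3 of 4, led by Tagln at 150 ± 33.2 TPM, and Rgs5 was undetected at 0.530 ± 0.620 TPM. The mural marker sum was 368, 349, 282, 284 and 203 TPM in replicates 1 to 5, lowest in replicate 5. In that library P2ry12, P2ry2, P2ry6 and P2ry14 were highest and P2ry1 was lowest. Neutrophil markers, of cells known to carry P2ry14, were detected for 1 of 3, S100a8 at 3.25 ± 1.73 TPM. S100a9 was at 0.657 ± 0.618 and Mpo at 0.00672 ± 0.0150 TPM. No lymphocyte marker of 5 was detected, with Cd3d, Cd3e and Nkg7 listed at 0 and Ms4a1 the highest at 0.0783 ± 0.0930 TPM. Among the other lists, the highest genes were Prph for neurons at 2212 ± 47.7, Glul for satellite glia at 244 ± 15.7, Col1a2 for fibroblasts at 597 ± 17.6 and C1qa for macrophages at 502 ± 84.8 TPM.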
